A study of Mus musculus with 35 samples.

Results

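The inner blood-retina barrier is made by the endothelial cells that line retinal vessels. Tight junctions seal the space between these cells, efflux pumps and carriers set what crosses them, and lipid transport by the cells holds vesicle traffic low. Norrin and Wnt signalling together with Sox transcription factors is known to maintain this state in retinal and brain endothelium, and loss of it lets plasma leak into the tissue. Leak of this barrier is a known feature of diabetic retinopathy. 10 genes of the barrier were followed here across bulk mouse retina: the junction genes Cldn5, Ocln, Tjp1 and Cdh5, the transporters Abcb1a, Abcg2, Slco1a4 and Mfsd2a, the transcription factor Sox17 and Plvap, the diaphragm protein of leaky vessels. They were taken by symbol from the 25655 genes that each table lists, and all 10 were found and had an adjusted p in each of the 8 comparisons.

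Poly(A) RNA of retina from mice labelled wild-type was sequenced in 35 samples of 7 groups. Non-diabetic retina (ND) had 6 samples. Diabetic retina after 6 weeks (D6) had 5, and diabetic retina after 8 and 10 weeks (D8 and D10) had 5 each, with PBS named in the D8 and D10 labels alone. Retina after 8 weeks of diabetes with 2 weeks of DTx (D8 depleted) had 4 samples. Retina after 10 weeks of diabetes with 2 weeks of DTx and 2 weeks of recovery (D10 repopulated) had 5, and non-diabetic retina with the same 2 weeks of DTx and 2 weeks of recovery (ND repopulated) had 5. The series text speaks of CX3CR1-WT mice and of a drug, PLX-5622, where the labels have DTx, and which of the agents removed the microglia cannot be told from these sources. How diabetes was induced and the age and sex of the mice are not stated in the labels or the series text, and nothing there says that each sample is a separate animal, so p-values measure the spread between samples.

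The values are the authors' deposited comparisons: per gene a log2 fold change, a p-value, an adjusted p and the larger group mean. Values per sample were not used here, so neither sequencing depth nor the overlap of groups can be given. The file headers give the means no unit, and whether they are scaled by gene length is not known. A fold change is therefore read within 1 gene, and sums over a marker list are compared between groups only. Ranking genes by their mean, to leave out the lowest 40% or to pick the markers of highest mean, uses these values as deposited. A standard error was implied from each p, and a gene was called at an adjusted p under 0.05. Where a group mean was not the larger one, it was computed as the ND mean times the deposited fold change. Over 22 means known both ways the computed value differed from the deposited one by a median of 1.75% and at most by 4.66%.

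The transporters Abcb1a and Slco1a4 were called lower in 5 and 3 of the 8 comparisons, Mfsd2a in 1 and Cldn5 in none, so the 250 bases before the start of these 4 genes are shown in lower case. Capitals mark matches, on either strand, to the letters AACAAT of a SOX site, CTTTGA of a TCF/LEF site or CGGAAG of an ETS site. The sequences are RefSeq's on GRCm38.p6, in which 7 of the 10 genes have an entry. They run 5′ to 3′ on the gene's strand, at chr5:8566841-8567090 (plus) for Abcb1a, chr6:141856221-141856470 (minus) for Slco1a4, chr4:122961189-122961438 (minus) for Mfsd2a and chr16:18776597-18776846 (plus) for Cldn5.
Abcb1a: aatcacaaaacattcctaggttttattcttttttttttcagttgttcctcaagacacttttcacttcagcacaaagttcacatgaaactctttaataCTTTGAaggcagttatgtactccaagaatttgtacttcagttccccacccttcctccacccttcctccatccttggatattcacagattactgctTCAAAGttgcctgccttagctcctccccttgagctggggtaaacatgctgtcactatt
Slco1a4: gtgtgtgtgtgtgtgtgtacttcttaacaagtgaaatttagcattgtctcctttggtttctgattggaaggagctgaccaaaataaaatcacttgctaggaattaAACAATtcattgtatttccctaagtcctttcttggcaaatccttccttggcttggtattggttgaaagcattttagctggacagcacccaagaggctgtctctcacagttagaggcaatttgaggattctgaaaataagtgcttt
Mfsd2a: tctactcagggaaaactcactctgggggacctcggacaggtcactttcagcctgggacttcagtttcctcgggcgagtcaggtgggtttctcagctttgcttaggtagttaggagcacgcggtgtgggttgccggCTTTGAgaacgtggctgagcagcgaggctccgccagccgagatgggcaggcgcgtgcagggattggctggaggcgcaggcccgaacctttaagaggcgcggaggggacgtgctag
Cldn5: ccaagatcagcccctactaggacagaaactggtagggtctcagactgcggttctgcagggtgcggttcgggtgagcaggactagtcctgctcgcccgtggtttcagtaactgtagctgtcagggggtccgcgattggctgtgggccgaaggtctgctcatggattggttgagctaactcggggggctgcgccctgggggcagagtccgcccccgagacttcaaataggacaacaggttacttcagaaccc

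The Abcb1a window held 2 TCF/LEF matches, beginning 153 and 58 bases before the start, and no SOX or ETS match. Slco1a4 had 1 SOX match at 145 bases, Mfsd2a 1 TCF/LEF match at 115 bases, and Cldn5 none of the 3 motifs. No matches overlapped. Among 32851 windows of the same length, 9.42% held the SOX letters, 13.8% the TCF/LEF letters and 13.6% the ETS letters, so single matches are common, and a match is a description of letters and not a site. GC content was 40.4% in the Abcb1a window and 39.2% in that of Slco1a4, against 61.6% for Mfsd2a, 59.6% for Cldn5 and a median of 52.4% over all windows.

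Of 80 combinations of gene and comparison 16 were called, where 10.9% of 137495 such tests over all genes were, and these fell on 5 genes. Abcb1a was called in 5 of the 8 comparisons, Sox17 in 4, Slco1a4 and Cdh5 in 3 each and Mfsd2a in 1. Cldn5, Ocln, Tjp1, Abcg2 and Plvap were called in none. All calls of Abcb1a, Sox17, Slco1a4 and Mfsd2a were lower, and all calls of Cdh5 were higher. The median of the 10 against ND was log2 -0.16 in D6, -0.15 in D8, -0.45 in D10, -0.28 in D8 depleted and -0.31 in D10 repopulated, where the median over all tested genes lay between 0.00 and 0.04, and -0.15 in ND repopulated. The plot of fold changes against ND shows the 10 genes with their intervals.

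**Figure D1:**
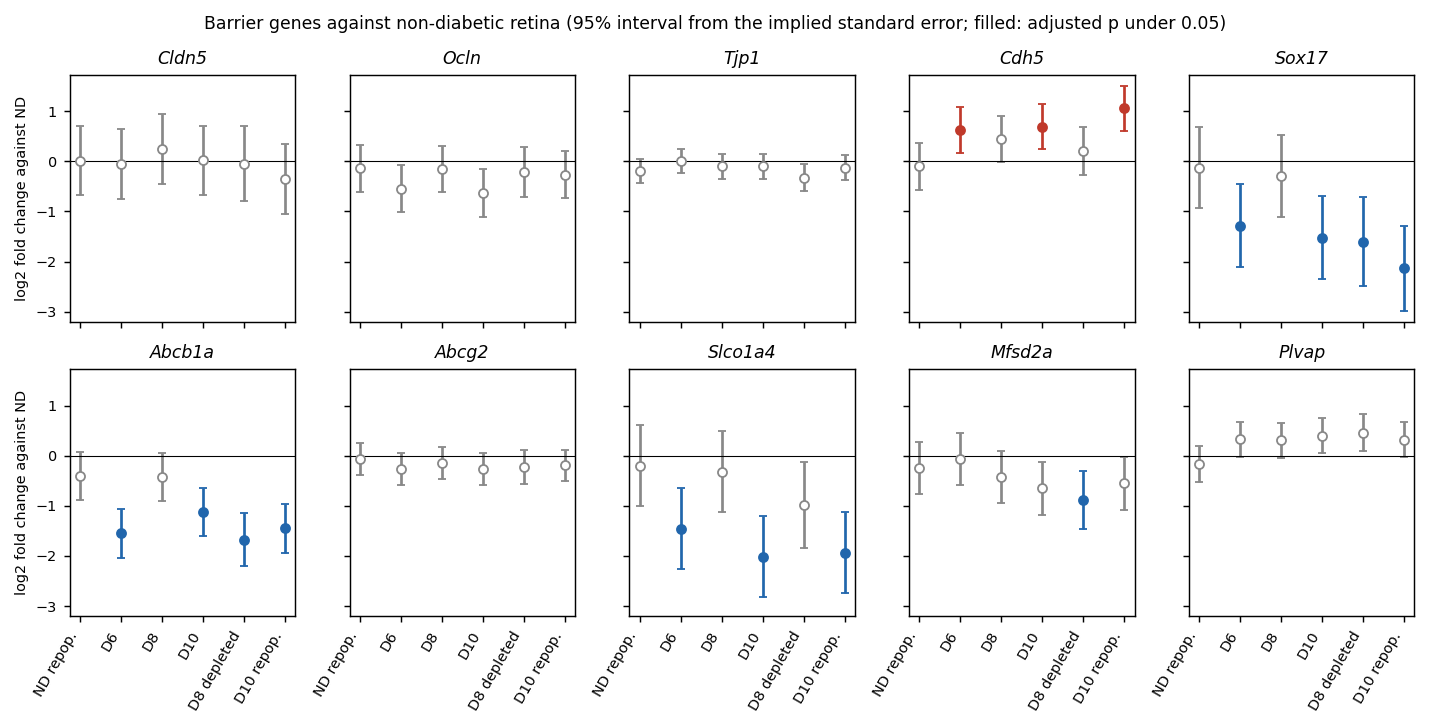
Log2 fold change of each barrier gene against non-diabetic retina (y axis, log2) in 6 groups (x axis), with 95% intervals from the implied standard error; filled points passed an adjusted p of 0.05, red higher and blue lower. Abcb1a and Sox17 lie low in D6, D10, D8 depleted and D10 repopulated and near ND in D8 and ND repopulated, and Cldn5 and Tjp1 lie between log2 -0.36 and 0.25 in all 6.

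After 6 weeks of diabetes, before any depletion, 3 of the 10 genes were lower and 1 was higher than in ND, where 23.4% of all 17876 tested genes were called, 9.31% lower and 14.1% higher. Abcb1a encodes the efflux pump P-glycoprotein, which returns lipophilic drugs from the endothelium to blood. Its group mean was 1.85 in ND and 0.634 in D6, a fall of 2.92-fold (log2 -1.55, implied standard error 0.25, adjusted p = 7.11e-08 in the authors' deposited table). Slco1a4, an organic anion carrier of brain and retinal endothelium, had a mean of 3.33 in ND and 1.22 in D6 and fell by 2.74-fold (log2 -1.45, error 0.41, adjusted p = 0.00418 in the authors' deposited table). Sox17, an endothelial transcription factor that acts with Wnt and Notch signals, had a mean of 0.688 in ND and 0.283 in D6 and fell by 2.43-fold (log2 -1.28, error 0.42, adjusted p = 0.0156 in the authors' deposited table). Cdh5, the gene of VE-cadherin in the adherens junctions of endothelium, moved the other way, from 1.04 to 1.53 (log2 0.63, error 0.23, adjusted p = 0.0336 in the authors' deposited table).

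The tight junction genes did not pass the test at 6 weeks. Ocln, which encodes the junction protein occludin, was at log2 -0.55 (95% interval -1.02 to -0.08, adjusted p = 0.0801), and Cldn5, the main claudin of the barrier, at -0.06 (-0.76 to 0.63) in the authors' deposited table. Tjp1, the gene of the scaffold protein ZO-1 that many retinal cell types also make, was at 0.01 (-0.24 to 0.25) there. Abcg2, a second drug efflux pump, was at log2 -0.27 (-0.58 to 0.05), Mfsd2a, the lysolipid carrier that restrains vesicle transport, at -0.06 (-0.59 to 0.46) and Plvap at 0.32 (-0.03 to 0.68) in the authors' deposited table. Among these 6 genes the interval of Tjp1 was the narrowest and that of Cldn5 the widest.

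After 8 weeks none of the 10 genes was called against ND, and none had an unadjusted p under 0.05. Of all 17495 tested genes 2.91% were called. Abcb1a had a mean of 1.41 in D8, between those of ND and D6, at log2 -0.42 (-0.90 to 0.06, adjusted p = 0.547 in the authors' deposited table). Slco1a4 was at log2 -0.32 (-1.13 to 0.48), Sox17 at -0.29 (-1.11 to 0.52) and Cdh5 at 0.44 (-0.01 to 0.90) in the authors' deposited table. All 4 had the sign they had at 6 weeks. Comparisons against ND share the ND samples, so such agreement, here and at other times, is not an independent repeat. Mfsd2a was at log2 -0.43 (-0.95 to 0.10) and Plvap at 0.31 (-0.05 to 0.66) in the authors' deposited table.

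After 10 weeks the same 4 genes as at 6 weeks were called against the same ND samples, again 3 lower and 1 higher. Of all 17317 tested genes 7.00% were called, 1.41% lower and 5.59% higher. Slco1a4 had its lowest group mean of all here, 0.825 against 3.33 in ND, a fall of 4.04-fold (log2 -2.01, error 0.41, adjusted p = 4.93e-05 in the authors' deposited table). Abcb1a fell by 2.17-fold to 0.861 (log2 -1.12, error 0.25, adjusted p = 0.000199), and Sox17 by 2.88-fold to 0.240 (log2 -1.53, error 0.42, adjusted p = 0.00695) in the authors' deposited table. Cdh5 rose to 1.69 (log2 0.69, error 0.23, adjusted p = 0.0429 in the authors' deposited table). With the authors' deposited values centred on the median pan-endothelial gene, Cdh5 was at log2 0.47 and no longer passed (adjusted p = 0.111).

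The other genes at 10 weeks included 3 with an unadjusted p under 0.05 that failed the adjustment. Ocln was at log2 -0.63 (-1.11 to -0.16, adjusted p = 0.0991), Mfsd2a at -0.65 (-1.18 to -0.12, adjusted p = 0.160) and Plvap at 0.40 (0.04 to 0.75, adjusted p = 0.214) in the authors' deposited table. Cldn5 was at log2 0.01 (-0.68 to 0.71), Tjp1 at -0.10 (-0.35 to 0.15) and Abcg2 at -0.27 (-0.59 to 0.05) there.

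**Figure D2:**
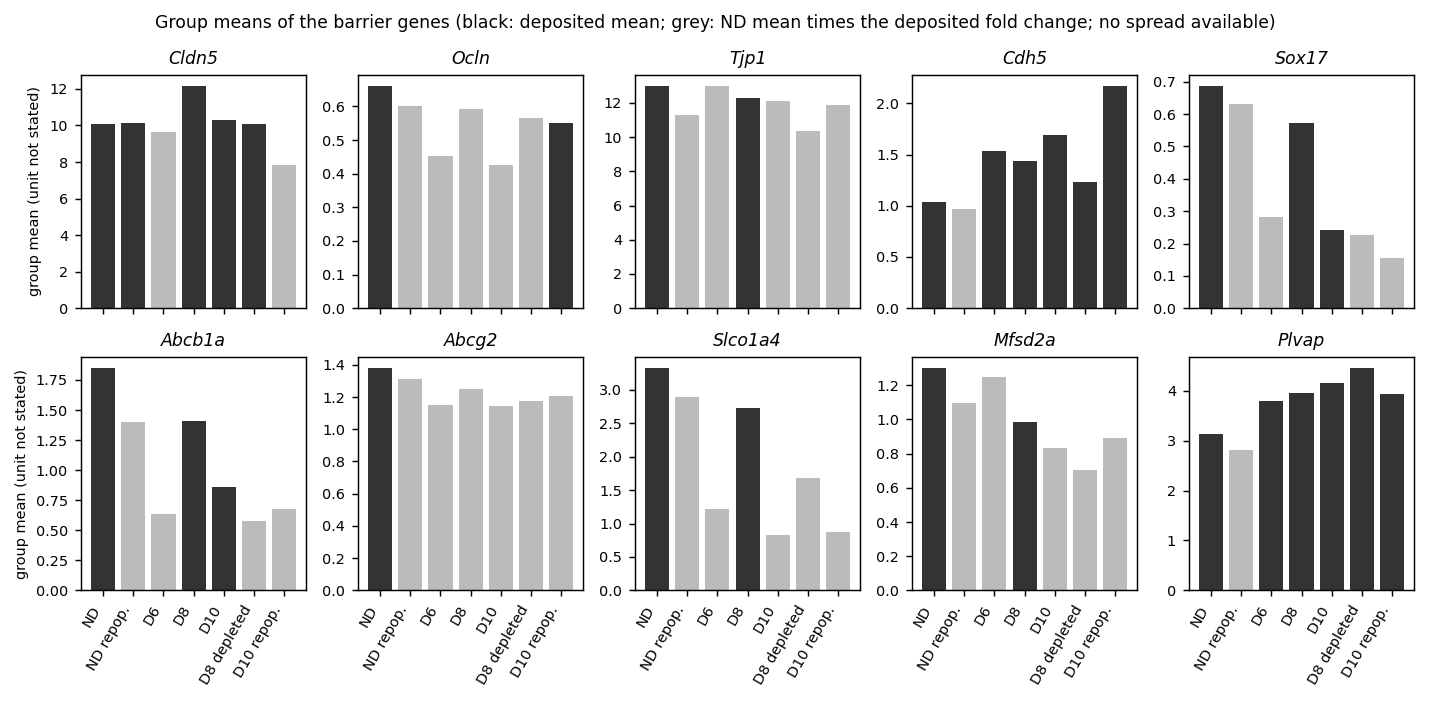
Group means of each barrier gene (y axis, unit not stated, own scale per gene, from 0) in the 7 groups (x axis); black bars are deposited means and grey bars ND means times the deposited fold change, with no spread because no values per sample were used. Slco1a4 stands at 3.33 in ND, 2.72 in D8 and 0.825 in D10, and Cdh5 is highest in D10 repopulated at 2.17.

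The fall at D6 and D10 and the value near ND at D8 were compared through the shared ND samples, since no table sets the 3 times side by side. From the authors' deposited values, Abcb1a was higher in D8 than in D6 by log2 1.12 (0.44 to 1.81, adjusted p = 0.271 with the variances added, which overstates the error because ND cancels). With the ND share of the variance taken off the authors' deposited values, the interval was 0.62 to 1.63 and the adjusted p = 0.00271. Called in this difference were 0.0229% of 17495 genes with added variances and 3.74% with the ND share off. Slco1a4 and Sox17 were higher in D8 by log2 1.13 and 0.99, with adjusted p = 0.110 and 0.184 from the authors' deposited values with the ND share off.

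In D10 minus D8 Slco1a4 was at log2 -1.69 (-2.83 to -0.55), Sox17 at -1.23 (-2.40 to -0.07) and Abcb1a at -0.70 (-1.38 to -0.02), each with an unadjusted p under 0.05. None of these 3 passed the adjustment, in which 0.00% of 17317 genes were called with added variances (219 at an unadjusted p under 0.05) and 0.0173% with the ND share off. The smallest adjusted p with the ND share off was 0.133, for Slco1a4. D8 and D10 lie in one run of title numbers, 2974 to 2983, and the other 5 groups in another, 3006 to 3035. What these numbers stand for is not stated. D10 minus D8 therefore stays within the first run, and contrasts among ND, D6, D8 depleted, D10 repopulated and ND repopulated stay within the other. D8 and D10 against ND, D8 minus D6, D8 depleted against D8 and D10 repopulated against D10 cross between the runs. Within the later run Abcb1a and Sox17 were called lower than ND in D6, D8 depleted and D10 repopulated, and Slco1a4 in D6 and D10 repopulated but not in D8 depleted. Across the runs the 3 genes were called lower in D10 and not in D8, and the part of the run was not tested.

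Depletion was read in D8 depleted against D8, at the same diabetes time but across the runs of numbers and with PBS named in D8 alone. Microglia markers fell in 16 of 17 cases (median log2 -3.52), and their summed level was 8.59 in D8 depleted against 45.8 in D8. Of the barrier genes only Abcb1a was called, lower, where 10.8% of 16982 tested genes were called and 4.90% lower. Abcb1a fell by 2.39-fold, from a mean of 1.41 to 0.580 (log2 -1.26, error 0.29, adjusted p = 0.000833 in the authors' deposited table). Sox17 was at log2 -1.32 (-2.27 to -0.37) and missed the threshold with an adjusted p = 0.0563 in the authors' deposited table. With genes of the lowest 40% of level left out, 4 of the 10 genes were still tested and none was called, because Abcb1a itself lay below that limit.

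The remaining genes under depletion were not called. Tjp1 was at log2 -0.23 (-0.45 to -0.01, adjusted p = 0.169), Slco1a4 at -0.68 (-1.63 to 0.27), Mfsd2a at -0.47 (-1.11 to 0.18) and Cldn5 at -0.30 (-0.93 to 0.32) in the authors' deposited table. Cdh5 was at log2 -0.25 (-0.80 to 0.30), Abcg2 at -0.10 (-0.52 to 0.32), Ocln at -0.08 (-0.68 to 0.53) and Plvap at 0.15 (-0.24 to 0.54) there. Of the 10 genes 9 had a negative sign, with a median of log2 -0.27 against 0.00 over all tested genes. This count is not particular to depletion. In ND repopulated against ND 9 were negative too, with a median of -0.15 and none called. It was 7 or 8 in each diabetic group against ND and 5 in D10 repopulated against D10. Of the 25 pan-endothelial markers none rose and 3 fell in D8 depleted against D8, Kdr, Tek and Cd34, with a median of -0.16. Of 10 caveola and vesicle genes none rose and 2 fell, with a median of -0.29. Markers of other tissues moved in the same contrast: the 6 blood genes summed to 8.31 in D8 and 38.9 in D8 depleted, with 4 of 5 tested higher, the 10 lens genes to 60.02 and 7.10, with 5 of 9 tested lower, and the 12 pigment epithelium genes to 40.9 and 103, with 4 of 12 higher. A mean computed from a fold change cannot be 0, so absence of a gene from a group cannot be read from these sums. The part of these genes in the fall of Abcb1a was not tested.

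Against ND, D8 depleted had 3 barrier genes lower and none higher, where 28.5% of 18102 tested genes were called and 12.99% lower. Abcb1a was lower by 3.19-fold (log2 -1.67, error 0.27, adjusted p = 3.64e-08), Sox17 by 3.04-fold (log2 -1.60, error 0.45, adjusted p = 0.00309) and Mfsd2a by 1.85-fold (log2 -0.88, error 0.29, adjusted p = 0.0126) in the authors' deposited table. Mfsd2a had a mean of 1.30 in ND, 0.984 in D8 and 0.705 in D8 depleted, its lowest group. Slco1a4 was at log2 -0.99 (adjusted p = 0.0741), Tjp1 at -0.33 (0.0514) and Plvap at 0.46 (0.0532) in the authors' deposited table, each just over the threshold. Cdh5, called at D6 and D10, was at log2 0.20 (-0.28 to 0.69) there.

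Repopulation was read in D10 repopulated against D10 and in ND repopulated against ND. None of the 10 genes was called in either, and none had an unadjusted p under 0.05, where 0.446% of 16826 and 0.156% of 15402 tested genes were called. In the diabetic pair Sox17 was at log2 -0.61 (-1.52 to 0.30), Abcb1a at -0.33 (-0.85 to 0.19), Slco1a4 at 0.08 (-0.58 to 0.74) and Cdh5 at 0.36 (-0.06 to 0.78) in the authors' deposited table. In the non-diabetic pair Abcb1a was at log2 -0.40 (-0.88 to 0.07), Slco1a4 at -0.20 (-1.003 to 0.61), Sox17 at -0.13 (-0.94 to 0.69) and Cdh5 at -0.11 (-0.57 to 0.36) in the authors' deposited table. Each of these intervals includes 0, and those of Sox17 and Slco1a4 are the widest of the 4 in both pairs. Microglia markers summed to 25.2 in D10 repopulated against 49.7 in D10, with 5 of 17 lower, and to 37.3 in ND repopulated against 36.1 in ND, with none called.

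**Figure D3:**
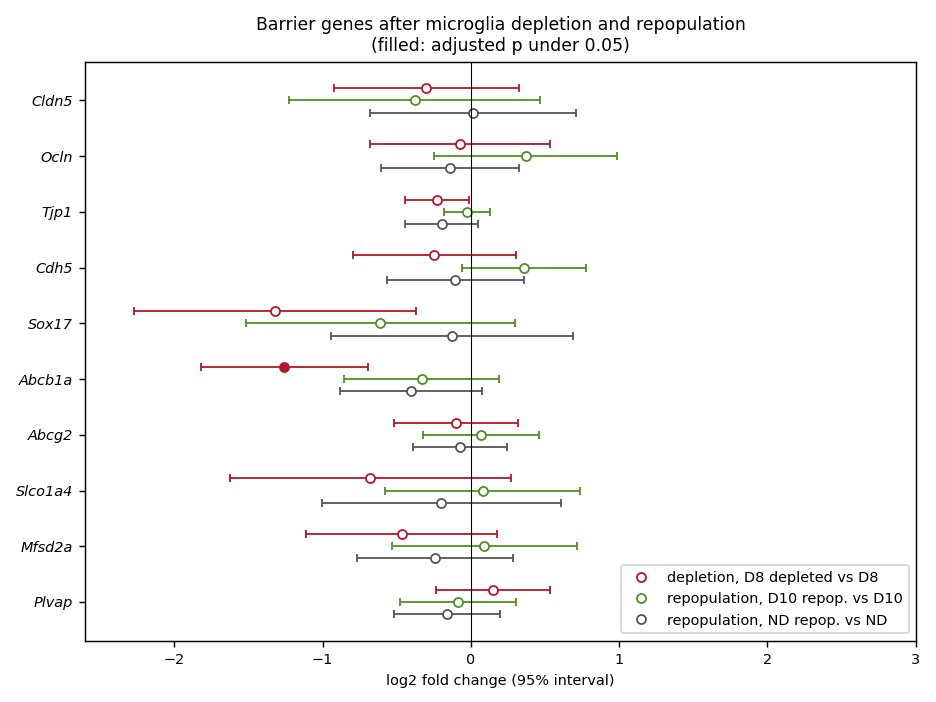
Log2 fold change (x axis, 95% interval from the implied standard error) of the 10 barrier genes (y axis) for depletion in D8, repopulation in D10 and repopulation in ND; filled points passed an adjusted p of 0.05. Abcb1a under depletion, at log2 -1.26, is the single filled point of the 30.

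D10 repopulated retina stood apart from ND in the same 4 genes as D10, with the ND samples shared by both comparisons. Of all 17495 tested genes 11.7% were called, 4.19% lower and 7.49% higher. Sox17 had its lowest mean here, 0.157 against 0.688 in ND, and was lower by 4.39-fold (log2 -2.13, error 0.43, adjusted p = 3.60e-05 in the authors' deposited table). Slco1a4 was lower by 3.82-fold (log2 -1.93, error 0.41, adjusted p = 0.000115) and Abcb1a by 2.72-fold (log2 -1.45, error 0.25, adjusted p = 4.65e-07) in the authors' deposited table. Cdh5 had its highest mean here, 2.17 against 1.04, and was higher by 2.07-fold (log2 1.05, error 0.23, adjusted p = 0.000179 in the authors' deposited table). Mfsd2a was at log2 -0.55 (adjusted p = 0.184) and Ocln, Tjp1, Cldn5, Abcg2 and Plvap lay between -0.36 and 0.32 in the authors' deposited table.

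Differences between contrasts were tested for all genes. Repopulation in D10 minus repopulation in ND called none of the 10 genes and 0.188% of 15400 genes, and none of the 10 had an unadjusted p under 0.05. Depletion in D8 minus repopulation in D10 called none and 0.654% of 16672, with Abcb1a at log2 -0.93 (-1.70 to -0.16, adjusted p = 0.306 from the authors' deposited values). Depletion in D8 minus repopulation in ND called none and 1.27% of 15395, with Abcb1a at -0.86 (-1.59 to -0.12, adjusted p = 0.303 from the authors' deposited values). The call of Abcb1a under depletion was thus not shown to differ from its value under repopulation. In each of these 3 differences the 2 contrasts share no sample.

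Diabetic and non-diabetic repopulated retina, compared through ND, differed in 2 of the 10 genes, where 3.32% of 15402 genes were called. Cdh5 was higher in D10 repopulated, at log2 1.16 (0.51 to 1.80, adjusted p = 0.0199), and Sox17 lower, at -2.01 (-3.18 to -0.83, adjusted p = 0.0298), from the authors' deposited values. Slco1a4 was at log2 -1.73 (adjusted p = 0.0731) and Abcb1a at -1.04 (adjusted p = 0.0703) from the authors' deposited values. With the ND share of the variance off the authors' deposited values, all 4 were called, with adjusted p = 8.91e-05, 0.000213, 0.00141 and 0.00130 in that order, and so were 11.5% of all genes. D10 repopulated minus D8 depleted called none of the 10 genes and 1.02% of 17495 with added variances. With the ND share off the authors' deposited values, it called Cdh5, higher by log2 0.85 (0.34 to 1.35, adjusted p = 0.0164), and 11.3% of all genes.

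In bulk retina fewer endothelial cells and less RNA per cell cannot be told apart, so the other endothelial genes were set beside the barrier genes. The 12 Muller glia and astrocyte markers of the labelled tissue summed to 860 in D10 up to 1088 in ND repopulated. Of these markers 2 rose and 4 fell in D6 and in D10 against ND, 2 and 5 in D8 depleted, 2 and 1 in D10 repopulated and none in D8, and 2 rose and 4 fell in D8 depleted against D8 (median log2 -0.35). The called share of these markers against ND was 50% in D6 and D10, 0% in D8, 58.3% in D8 depleted and 25% in D10 repopulated. Their part in the barrier genes was not tested. The 25 pan-endothelial markers had a summed level between 85.0 in ND repopulated and 104.8 in D8, with 92.7 in ND. Against ND they moved both ways: 5 rose and 5 fell at D6 (median log2 0.02 against 0.04 over all tested genes), 5 rose and none fell at D8 (0.24 against 0.00), and 7 rose and 4 fell at D10 (0.22 against 0.00). In D8 depleted 5 rose and 5 fell (0.20 against 0.02), and in D10 repopulated 4 rose and 5 fell (0.18 against 0.02). Their called share was 40% in D6, 20% in D8, 44% in D10, 40% in D8 depleted and 36% in D10 repopulated. Over all tested genes it was 23.4%, 2.91%, 7.00%, 28.5% and 11.7% in that order. Podxl, with Kdr one of the 2 markers of highest mean, was called in no comparison, and lay at log2 0.04, 0.11 and 0.09 in D6, D8 and D10 in the authors' deposited tables. Kdr, the main VEGF receptor, was lower than ND in D6, D10, D8 depleted and D10 repopulated, at log2 -0.78, -0.50, -1.05 and -0.63, and lower in D8 depleted than in D8, at -0.64, in the authors' deposited tables. Ecscr, an endothelial membrane protein, rose at all 3 diabetes times, by log2 1.77, 1.56 and 2.00, and Ly6c1 by 1.21, 1.39 and 1.38 in the authors' deposited tables. Tek, the angiopoietin receptor gene, was called lower in the 4 comparisons in which Sox17 was, at log2 -1.25 in D6, -1.60 in D10, -1.56 in D8 depleted and -1.79 in D10 repopulated, and also in D8 depleted against D8 at -1.37 in the authors' deposited tables. Kdr, Ptprb and Adgrl4 of the same list were called lower in the same 4 comparisons against ND, so the match to Sox17 is not particular to Tek.

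Centring each comparison on the median pan-endothelial gene, which takes off log2 0.24 in D8, 0.22 in D10, 0.20 in D8 depleted and 0.18 in D10 repopulated, changed how many barrier genes were called. In D8 against ND 3 of the 10 were then lower and none higher (Abcb1a -0.67, Mfsd2a -0.67 and Tjp1 -0.35), in place of none. In D10 7 were lower and none higher, in place of 3 and 1, and in D8 depleted against ND 6 were lower and none higher, in place of 3 and none. In D10 repopulated 4 were lower and 1 higher, in place of 3 and 1, and in D6 the split stayed at 3 and 1. The calls over all genes grew as well, from 509 to 4580 in D8 and from 1212 to 4782 in D10, which is 26.2% and 27.6% of tested genes, and 36.6% were called in D8 depleted and 24.9% in D10 repopulated, so these counts have a wider background. Abcb1a, Slco1a4 and Sox17 kept every call under this centring. In the diabetic groups against ND it moves lower values further down with the error unchanged, so these calls could hardly be lost. In D8 depleted against D8 the endothelial median was log2 -0.16, so there the centring moved Abcb1a towards 0. The spread of the endothelial list itself does not enter the centred values.

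Tight and adherens junction genes outside the 10 had medians between log2 -0.05 and 0.04 in all 8 comparisons. Of 20 tested, 1 was lower at D6 (Marveld3, log2 -0.60), none was called at D8 and 2 were higher at D10, Cgnl1 at log2 0.67 and F11r, the gene of the junction adhesion molecule JAM-A, at 0.56 in the authors' deposited tables. In D8 depleted 4 were higher and 1 lower, led by Tjp3 at log2 0.91 and Cldn1 at 1.18, and in D10 repopulated 3 were higher and 1 lower, with Cgn at -0.40 in the authors' deposited tables. The 12 pigment epithelium markers, an epithelium that makes tight junctions too, summed to 103 in D8 depleted and 108 in D10 repopulated against 67.5 in ND, with 2 of 12 higher in both and 1 lower in the latter, and their part was not tested. None of the 20 junction genes was called in D8 depleted against D8 or in the 2 repopulation pairs. Their called share against ND was 5% in D6, 0% in D8, 10% in D10, 25% in D8 depleted and 20% in D10 repopulated. Over all tested genes it was 23.4%, 2.91%, 7.00%, 28.5% and 11.7% in that order.

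Among 20 other transporters of the barrier the 2 with the smallest p moved in opposite directions. Abcb1b, the second mouse gene for P-glycoprotein, rose in all 5 diabetic groups against ND, where each value of Abcb1a was negative: log2 1.60 in D6, 1.18 in D8, 1.93 in D10, 1.26 in D8 depleted and 1.33 in D10 repopulated in the authors' deposited tables. Its group mean was 0.200 in ND and 0.461 to 0.771 in these groups. Slco1c1, the thyroxine carrier of the barrier, was lower than ND in D6, D10, D8 depleted and D10 repopulated, at log2 -1.12, -1.46, -1.34 and -1.31, and at -0.58 in D8, not called, in the authors' deposited tables. At D10 Slc22a8 and Slc38a5, an organic anion and an amino acid carrier, were lower, each at log2 -1.53, in the authors' deposited table. Slc2a1, the glucose carrier GLUT1, was called in no comparison and lay between log2 -0.32 and -0.06. In counts, 3 of 20 rose and 1 fell at D6, 1 and none at D8, 4 and 3 at D10, 3 and 4 in D8 depleted, and 2 and 3 in D10 repopulated, with none in either repopulation pair and 1 lower by depletion (Slc39a10, log2 -0.43). Against ND the called share was 20% in D6, 5% in D8, 35% in D10, 35% in D8 depleted and 25% in D10 repopulated. Over all tested genes it was 23.4%, 2.91%, 7.00%, 28.5% and 11.7% in that order.

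Genes of the Norrin, Wnt and Sox pathways were tested in 26 cases. Lrp5, the coreceptor for Norrin, fell against ND in all 5 diabetic groups, at log2 -0.71 in D6, -0.51 in D8, -0.55 in D10, -0.83 in D8 depleted and -0.47 in D10 repopulated in the authors' deposited tables. Fzd4, the Norrin receptor, was called at D6, higher by log2 0.94, and in no other comparison, and Ndp, the gene of Norrin itself, and the receptor partner Tspan12 were called in no comparison. The endothelial transcription factor Foxq1 fell in D6, D10, D8 depleted and D10 repopulated, at log2 -1.09, -1.42, -1.26 and -1.21, and Lef1, a nuclear effector of Wnt signals, in the last 3 of these, at -1.09, -0.91 and -1.35, in the authors' deposited tables. Sox18, close kin of Sox17, was at log2 -1.17 in D6 and -1.72 in D10 repopulated, both called, and at -0.96 in D10, not called, in the authors' deposited tables. Reck, which helps endothelium respond to Wnt7 ligands, rose by log2 0.64 in D6 and by 0.66 in D8 depleted against D8 in the authors' deposited tables. Wnt7a and Wnt7b were called lower at log2 -5.15 and -6.42 in D8, where lens markers were lower in 7 of 10 cases and summed to 60.02 against 2877 in ND. They were also among the genes lower in D8 depleted, at log2 -6.42 and -5.50 in the authors' deposited tables, where lens markers were lower in 9 of 10 cases and summed to 7.10, and the part of lens tissue was not tested. In counts, 3 rose and 4 fell at D6, none and 3 at D8, 1 and 4 at D10, 1 and 6 in D8 depleted, 1 and 6 in D10 repopulated, and 1 and none in D8 depleted against D8. The called share against ND was 26.9% in D6, 11.5% in D8, 19.2% in D10 and 26.9% in D8 depleted and in D10 repopulated. Over all tested genes it was 23.4%, 2.91%, 7.00%, 28.5% and 11.7% in D6, D8, D10, D8 depleted and D10 repopulated.

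Plvap was read with genes of caveolae, the vesicles that carry it, and with genes of sprouting endothelium. Plvap itself had means of 3.79 to 4.46 in the 5 diabetic groups against 3.14 in ND and 2.81 in ND repopulated, log2 0.31 to 0.46 against ND, and passed the test in none. Of 10 caveola and vesicle genes none rose and 5 fell at D6, none and 1 at D8, none and 3 at D10, none and 5 in D8 depleted and 1 and 4 in D10 repopulated. In that order the called share was 50%, 10%, 30%, 50% and 50%, against 23.4%, 2.91%, 7.00%, 28.5% and 11.7% of all tested genes. The single call at D8 was Aqp1, at log2 -0.62, a water channel gene and not a gene of the caveola coat. Which cells of bulk retina make the genes of this list was not tested, so these shares are not those of endothelium alone. Aqp1 was also called in D6, D10, D8 depleted and D10 repopulated, at log2 -0.90, -0.57, -0.54 and -0.88, in the authors' deposited tables. Cav1, the coat protein of caveolae, fell against ND in D6, D10, D8 depleted and D10 repopulated, at log2 -0.61, -0.40, -0.72 and -0.79, and in D8 depleted against D8, at -0.61, where Cav2 was at -0.71, in the authors' deposited tables. Of 12 angiogenic genes 3 rose and 2 fell at D6, 2 and 1 at D8, 2 and 2 at D10, 3 and 2 in D8 depleted, and 2 and 1 in D10 repopulated. In that order their called share was 41.7%, 25%, 33.3%, 41.7% and 25%. Pgf, the placental growth factor gene, rose by log2 2.56, 2.26 and 2.97 at 6, 8 and 10 weeks, and Apln, a tip cell ligand, was lower at -1.02, -1.20 and -1.21 in the authors' deposited tables.

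Over the 5 diabetic groups against ND the list medians lay between log2 -0.22 and -0.03 for the transporters, -0.14 and -0.04 for the Norrin, Wnt and Sox genes, -0.48 and -0.06 for the caveola and vesicle genes and -0.02 and 0.21 for the angiogenic genes.

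**Figure D4:**
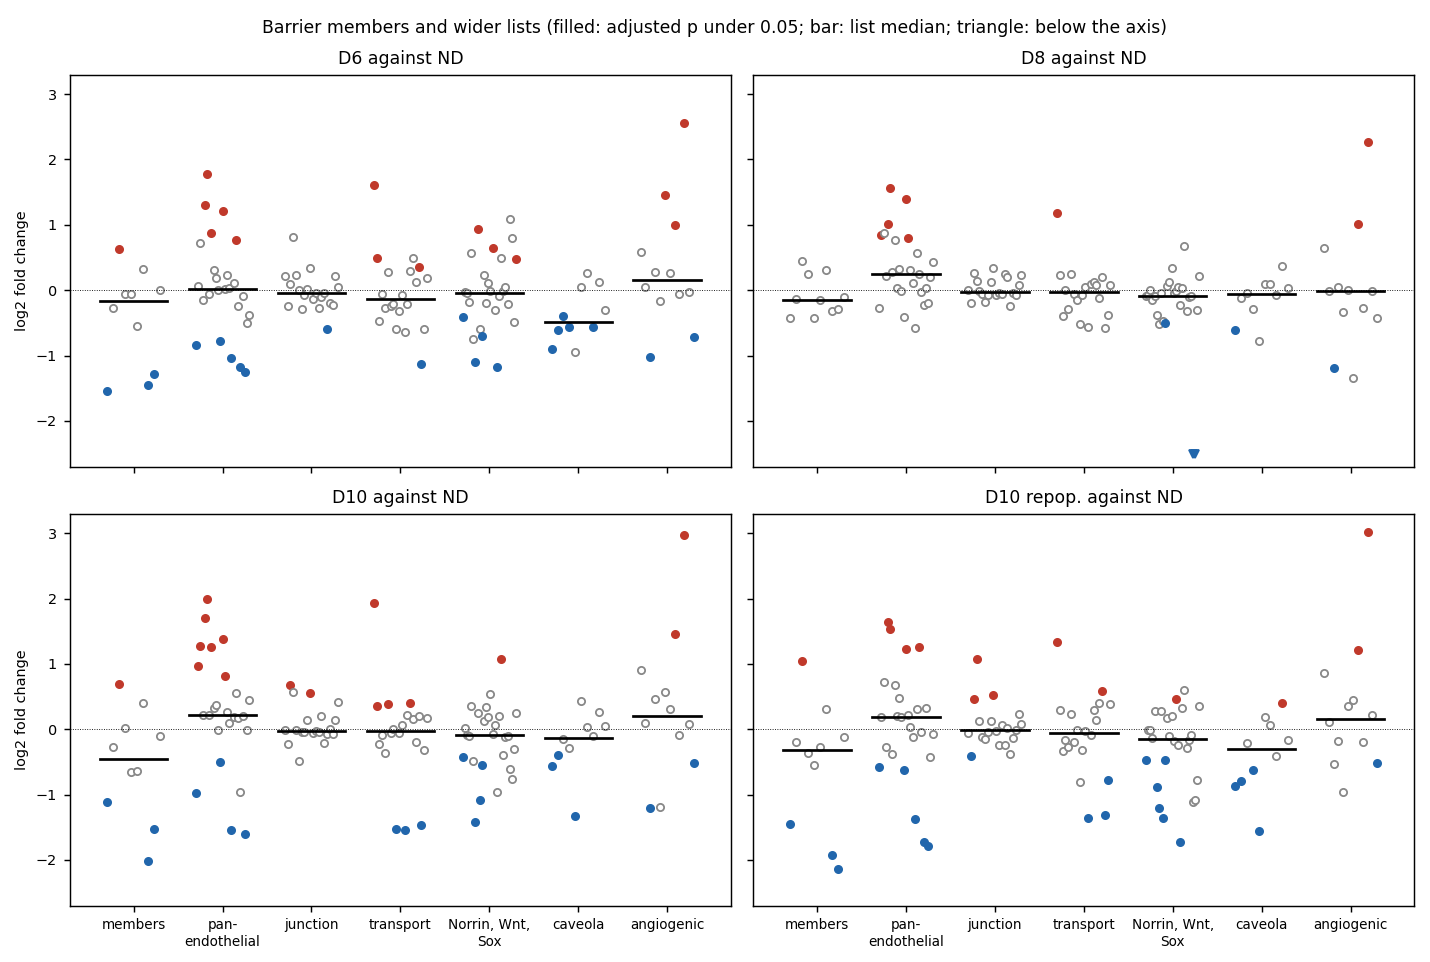
Log2 fold change against ND (y axis) of each gene in the 10 barrier members and 6 wider lists (x axis) for D6, D8, D10 and D10 repopulated; filled points passed an adjusted p of 0.05, bars are list medians and triangles lie below the axis. The medians of the endothelial, junction and transport lists stay between log2 -0.14 and 0.24, while single endothelial and transport genes move by more than 1 in both directions.

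Mural cells, the partners of the endothelium, and blood were read in the same contrasts. Of 15 pericyte and mural markers none rose against ND in any diabetic group. Called lower were 3 at D6, none at D8, 4 at D10, 4 in D8 depleted and 1 in D10 repopulated. In that order the called share was 20%, 0%, 26.7%, 26.7% and 6.67%, against 23.4%, 2.91%, 7.00%, 28.5% and 11.7% of all tested genes. The pericyte gene Rgs5 was lower in D6, D10 and D8 depleted, at log2 -0.31, -0.40 and -0.51, in the authors' deposited tables. Vtn, with Rgs5 one of the 2 markers of highest mean, was called in none of these groups. It lay at log2 -0.30 in D6, 0.05 in D8, -0.02 in D10, -0.21 in D8 depleted and -0.27 in D10 repopulated there. In D8 depleted against D8 1 of the 15 markers was lower and none higher, 6.67% against 10.8% of all tested genes. This was Rgs5, at log2 -0.41 (adjusted p = 0.00647 in the authors' deposited table). The list summed to 394 in ND, 325 in D6, 410 in D8, 389 in D10, 340 in D8 depleted and 326 in D10 repopulated. Such a sum weighs the markers of highest mean most, so it leans on Vtn and Rgs5 and is not a measure of mural cells alone. Which cells of bulk retina make Vtn was not tested. The 6 blood genes summed to 99.0 in ND, 25.7 in D6, 8.31 in D8, 9.56 in D10, 38.9 in D8 depleted and 129 in D10 repopulated. What part mural and blood content have in the barrier genes was not tested.

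For the 4 genes called in at least 3 comparisons, the genes with the most similar fold changes in the 6 comparisons against ND were looked up by Euclidean distance among 11135 genes of the upper 60% of level, with no test. The 6 comparisons share the ND samples. Sox17 lay nearest to Slco1a4 (distance log2 0.83), the chemokine gene Cxcl12 (0.86) and Abcb1a (0.90), in 11136 genes searched, though Sox17 itself fell below the level limit. Abcb1a lay nearest to Cxcl12 (0.58), the mitochondrial carrier gene Slc25a35 (0.63) and the photoreceptor gene Rcvrn (0.67). Slco1a4 lay nearest to Itm2a (0.97), Sned1 (1.04) and its relative Slco1c1 (1.09). Cdh5 had closer neighbours, Rnd1 (0.20), the protease gene Adamts3 (0.35) and the thiamine carrier gene Slc19a2 (0.37).

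Sequence shared with other genes can move reads between them. In GENCODE transcripts Abcb1a shares 7.49% of its 4898 windows of 100 bases, the read length, with Abcb1b, in a longest run of 338 bases. Slco1a4 shares 1.07% of 3724 windows with Slco1a5 and 0.886% with Slco1a1, and none with Slco1a6. How the authors' counting treated such reads is not stated, so the opposite signs of Abcb1a and Abcb1b carry that uncertainty. On GRCm39 the gene of Abcb1a spans chr5:8710077-8798575, Slco1a4 chr6:141751166-141801925, Sox17 chr1:4561154-4567577, Cdh5 chr8:104828257-104871143 and Mfsd2a chr4:122840643-122854981. Cldn5 spans chr16:18595597-18597012, Ocln chr13:100633015-100689226, Tjp1 chr7:64945913-65177529, Abcg2 chr6:58561508-58672661 and Plvap chr8:71950409-71964396. Of the 10, Tjp1, Abcb1a and Plvap overlap 5 other genes. Those within Tjp1 and Abcb1a were at level 0 in ND, and Plvap meets Gtpbp3, which had a mean of 7.49 in ND, on the opposite strand at its 3′ end. The library kit marks strand, and whether the counting used it is not stated.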

How the data were processed

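Stranded poly(A) libraries of 35 retina samples were read as paired 100 bp reads, per the labels' protocols. GRCm39 and bcl2fastq are named in the submitters' processing notes, while the aligner, the counter and the test of the tables are not given there. Each of the 8 deposited tables compares 2 groups. The log2 fold change, the p-value and its FDR adjustment are the authors' deposited values, and the signal level is the larger group mean, per the file headers, with no unit. The larger means summed to 295228 to 325163 per table. The table of D10 against D10 repopulated was turned round.

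Groups came from the labels. The implied standard error is the size of the log2 fold change over the two-sided normal quantile of the p-value, and stands for the precision, as depth is unknown. Deposited FDR values match Benjamini-Hochberg within 0.000489. For 7 differences of comparisons a normal test with Benjamini-Hochberg adjustment over all genes was used, and it was run on simulated data. These were drawn as normal noise from the same implied errors and ND share, independent between genes. The simulation therefore shares the assumptions of the test and cannot show whether they hold in the data. Of these 3 set contrasts with no shared sample against each other and 4 go through ND, for which taking off the ND covariance, by group size, was added after the data were seen. Through ND, the pairs D8 depleted and D8, and D10 repopulated and D10, differed from their direct tables by at most log2 0.0095 among the 10 genes, and the error without the ND covariance was 0.978 and 0.955 times the deposited one. The alternatives were an adjusted p under 0.01 or 0.10, a log2 size of 1 or more, the lowest 40% of level left out, predicted names left out, and centring on the median of the upper 60% of level or of the pan-endothelial list.

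The members, the 5 pathway lists (88 genes), the 7 cell marker lists, which share some genes with them, and the tests were chosen with earlier results of these data known. By rule the text takes all 10 members, in each pathway list the called genes with the 3 smallest p per comparison, in each marker list the 2 of highest level, and the 3 nearest genes of members called in at least 3 comparisons, and it names only some of these. Chosen after their values were seen were Ecscr, Ly6c1, Tek, Ptprb, Adgrl4, Cd34, Slc2a1, Slc38a5, Ndp, Tspan12 and values of Sox18, Lef1, Foxq1, Lrp5, Fzd4, Apln and Slco1c1 that the rule does not take. Computations used Python 3.11.15, numpy 2.4.6, pandas 2.3.3 and scipy 1.17.1, and figures matplotlib 3.10.9.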

Additional observations from a re-analysis of the deposited data

Results flagged for a closer look

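From the authors' deposited values, Abcb1a was higher in D8 than in D6 by log2 1.12 (implied standard error 0.26, adjusted p = 0.00271) in the difference through ND with the ND share of the variance taken off, so its fall against ND differed between 6 and 8 weeks of diabetes. With the variances of the authors' deposited values added, the same difference had a standard error of 0.35 and an adjusted p = 0.271. D6 and D8 also differ in the run of title numbers and in the PBS named in the D8 label, which cannot be told apart from diabetes time here.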

How the results depend on the processing

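No paired analysis was possible because the tables hold no values per sample, and for the same reason no replicate was left out. Of the 16 calls 13 kept an absolute log2 of at least 1, 12 passed an adjusted p under 0.01, 16 held at 0.10, with predicted names left out and centred on the median, 15 held centred on endothelial genes, and 10 of 10 that could be tested held with low levels left out. That filter reads the larger of the 2 group means alone, so a gene stays in through the group where it is higher. In D6 against ND Abcb1a, at 0.634 in D6, under the limit of 1.47, was kept through its ND mean of 1.85. The 10 calls that held therefore say nothing of the group of lower mean. The filter did not cover any call of Sox17, the call of Mfsd2a or that of Abcb1a in D8 depleted against D8, which lay in the lowest 40% of level. Centring on endothelial genes moves lower values against ND further down, so lower calls kept there were close to fixed in advance. At an adjusted p under 0.01 the calls among the 10 genes were 2 in D6 against ND (13.4% of all tested genes) and 0 in D10 repopulated minus ND repopulated (1.75%). At 0.10 they were 6 in D8 depleted against ND (35.5% of all), 2 in D8 depleted against D8 (16.1%) and 4 in D10 repopulated minus ND repopulated (4.79%). With the lowest 40% of level left out they were 0 of 4 in D8 depleted against D8 (13.5%) and 0 of 3 in D10 repopulated minus ND repopulated (2.68%), where the called genes were themselves left out. Centred on endothelial genes they were 3 in D8 (26.2%), 7 in D10 (27.6%) and 6 in D8 depleted (36.6%) against ND. With the ND covariance off they were 1 in D8 minus D6 (3.74%), 1 in D10 repopulated minus D8 depleted (11.3%) and 4 in D10 repopulated minus ND repopulated (11.5%). Signs turned in uncalled values alone: Tjp1 in D6 (log2 -0.0032 centred on the median, -0.015 on endothelial genes) and, centred on endothelial genes, Cldn5 in D10 (-0.21), Abcg2 in ND repopulated against ND (0.025), Ocln and Abcg2 in D8 depleted against D8 (0.088 and 0.064), and Tjp1 and Plvap in D10 repopulated against D10 (0.18 and 0.13). Implied standard errors of log2 0.32 to 0.49 for Cldn5, Slco1a4 and Sox17 limit what their uncalled values show. The cause of the other moves was not tested.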
